A study of Mus musculus with 6 samples.

Results

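The genes described here encode the enzymes and transporters that take up glucose, break it down to lactate, store it as glycogen and release it again. They were chosen by symbol, 34 symbols in all, matched through the GENCODE M21 annotation of the mouse build GRCm38. These symbols took 35 of the 55335 gene identifiers in the data, because Aldoa is annotated under 2 identifiers. Expression was measured by stranded mRNA sequencing in 6 libraries. The Mito_T group (n = 3) consisted of bEnd.3 cells of WT genotype given mitochondria that had been isolated from primary mouse astrocytes, in 100 µl of medium. The Ctrl group (n = 3) consisted of the same cells given that volume of medium alone, and both groups were collected after 24 h. bEnd.3 cells descend from mouse brain endothelium transformed by a polyomavirus oncogene, and all cells grew in high-glucose medium with serum. The question behind the series is whether mitochondria passed on by astrocytes regulate the blood-brain barrier, and the design holds a single comparison, Mito_T against Ctrl.

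Glycolysis splits glucose into pyruvate in the cytosol, and lactate dehydrogenase turns pyruvate into lactate, which leaves the cell through monocarboxylate transporters. Endothelial cells are known for drawing most of their ATP from glycolysis rather than from respiration. Several steps are run by isozymes from separate genes, named for the tissue in which each was found, and these differ in how they are regulated. Hexokinase and phosphofructokinase are the regulated entry steps, while the enzymes from aldolase to enolase work near equilibrium.

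The deposited values were read as FPKM, fragment numbers per unit of transcript length, scaled to library size, so levels can be compared between genes. Depth estimated from the FPKM was 22200000 to 27600000 fragments in the Mito_T libraries and 17300000 to 21300000 in the Ctrl libraries, with no overlap. The part of depth in the results was not tested. The labelled cell type was checked against 12 endothelial markers, of which 7 stayed under 1 FPKM in every library. Among those 7 were Cdh5 (0.01 to 0.07 FPKM), Pecam1 (0.13 to 0.27 FPKM) and Cldn5 (0 to 0.13 FPKM), while Eng was at 55.5 to 68.95 FPKM and Tie1 at 4.94 to 6.16 FPKM. Of the 5 tested, 0 were higher and 2 were lower at an unadjusted p under 0.05 in limma, and 0 were called. These were Flt1, at 7.75 ± 0.278 FPKM in Mito_T libraries and 10.04 ± 0.932 FPKM in Ctrl libraries, and Kdr, at 2.996 ± 0.262 FPKM in Mito_T libraries and 3.94 ± 0.249 FPKM in Ctrl libraries (SD, n = 3 each), both VEGF receptors and both without overlap. Cdh5, Pecam1 and Cldn5, all endothelial markers, were therefore near 0 in both groups. The part of the marker differences in the results was not tested. The labels do not state whether replicate libraries are separate cultures, so each p-value reflects the scatter of these libraries, possibly technical scatter alone. In bulk libraries fewer cells with a transcript and less of it per cell cannot be told apart.

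The promoters of 4 of the genes are shown, as the bases just before a transcription start in RefSeq. Pfkl is shown as the 1 member whose change passed the test, and Hk1 as the member with the largest change. Ldha and Ldhb are shown as isozymes whose shares did not overlap between the groups, a difference that did not pass its test. Sequences are from RefSeq on GRCm38.p6, 160 bases each, on the gene's strand, 5′ to 3′. RefSeq starts differ from the GENCODE gene ends used for the FPKM values: the Pfkl and Ldha stretches lie inside the GENCODE genes (chr10:77986947-78010083 for Pfkl, chr7:46841475-46855627 for Ldha), while those of Hk1 and Ldhb lie just outside theirs. Capitals mark ACGTG and GCGTG on either strand, the core letters of the hypoxia response element.
Pfkl, chr10:78009808-78009967, minus strand: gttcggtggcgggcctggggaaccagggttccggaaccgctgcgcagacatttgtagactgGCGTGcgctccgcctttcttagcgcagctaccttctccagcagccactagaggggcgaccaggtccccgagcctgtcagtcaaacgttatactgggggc
Hk1, chr10:62379909-62380068, minus strand: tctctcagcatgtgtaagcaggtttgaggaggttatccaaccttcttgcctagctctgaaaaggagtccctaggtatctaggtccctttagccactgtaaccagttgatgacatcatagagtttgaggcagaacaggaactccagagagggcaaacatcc
Ldha, chr7:46845644-46845803, plus strand: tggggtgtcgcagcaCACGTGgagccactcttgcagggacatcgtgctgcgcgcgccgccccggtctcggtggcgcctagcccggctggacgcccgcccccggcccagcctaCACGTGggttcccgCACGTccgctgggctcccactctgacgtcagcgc
Ldhb, chr6:142507958-142508117, minus strand: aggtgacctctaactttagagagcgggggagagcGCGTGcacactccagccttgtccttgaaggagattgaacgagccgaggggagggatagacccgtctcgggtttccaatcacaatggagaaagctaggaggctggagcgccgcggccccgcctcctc

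The Ldha stretch held CACGTG at 2 places, and each such place counts as a match on both strands, so the capitals there cover 5 matches of ACGTG. The Ldhb and Pfkl stretches each held 1 GCGTG, and the Hk1 stretch held neither. Hk1 and Ldha each have a further annotated start whose bases are not printed, with 2 matches of GCGTG in the 160 bases before that of Hk1 and 1 before that of Ldha. Of the 34 genes, 33 matched the promoter table, with 50 windows of 300 bases that run from 250 bases before a start to 50 after it. ACGTG, or CACGT on the other strand, was present in 46% of these windows and in 19.6% of all 32851 windows. GCGTG, or CACGC on the other strand, was present in 46% of the members' windows and in 32.4% of all windows. The full palindrome CACGTG, which contains ACGTG, was present in 10% of the members' windows and in 7.15% of all windows. Base composition was not matched, and a match of letters is a description of the sequence alone.

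After mitochondria were added, Pfkl, the liver-type phosphofructokinase, was the 1 member that passed the test, higher by 1.27-fold. Its call was kept in 7 of 17 alternative settings and was lost whichever of the 6 libraries was left out. Among the 7 is the setting that adds near-identical copies of genes. Pfkl has no such copy, so its values were the same there and that setting tests nothing for it. Most other members lay slightly higher in Mito_T libraries without passing the test. Of the 34 genes, 30 were at 1 FPKM or more in at least 3 libraries and were tested, and each of these 30 reached 1 FPKM in all 6 libraries. The change was tested by limma on log2(FPKM + 1) over 12639 genes, with Benjamini-Hochberg adjustment. A gene was called at an adjusted p under 0.05. Among all genes tested 0.467% were called higher and 0.649% were called lower in Mito_T, 1.12% in all, and 1 of the 30 members was called higher and 0 were called lower. With p under 0.05 before adjustment, 10 members were higher and 1 was lower, where 6.58% of all genes were higher and 7.32% lower at that level. The same numbers of members, 10 higher and 1 lower, had Mito_T and Ctrl libraries that did not overlap, against 9.62% and 11.4% of all genes. The median log2 change was 0.12 over the 30 members and −0.01 over all genes tested, and 25 of the 30 were positive against 48% of all genes.

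**Figure D1:**
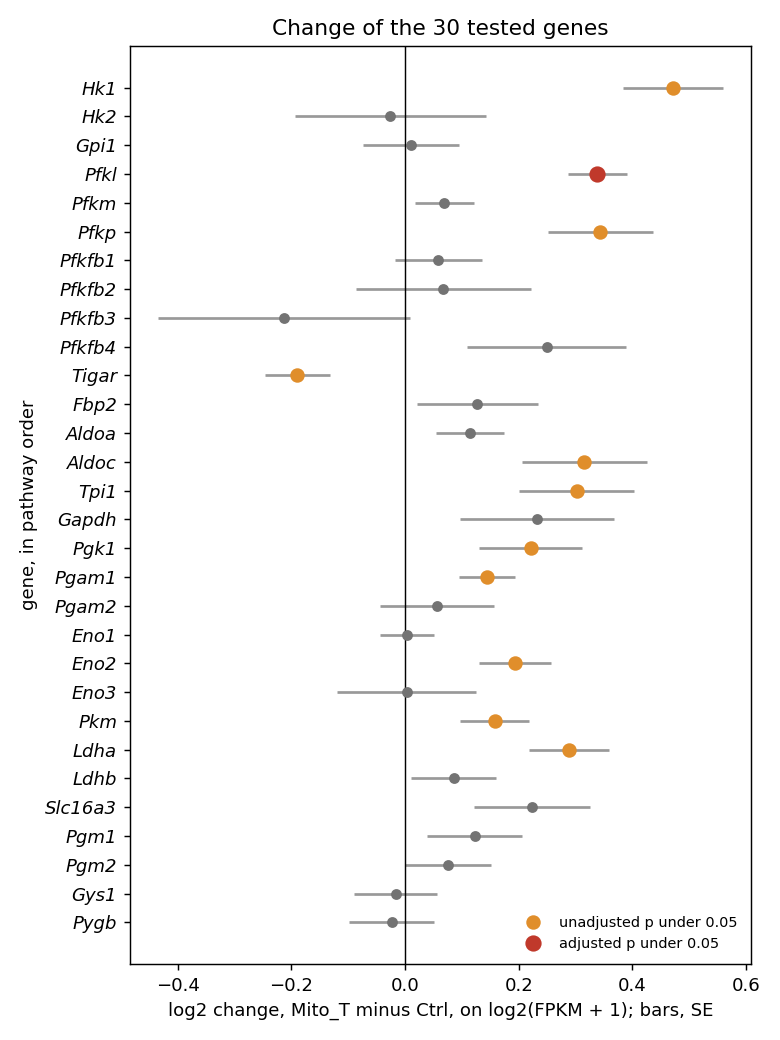
Log2 change of the 30 tested genes in pathway order, Mito_T minus Ctrl on the log2(FPKM + 1) scale, with SE bars (n = 3 in each group). Pfkl, in red, passed the adjusted threshold of 0.05, the genes in orange passed an unadjusted p of 0.05 only, and Tigar is the 1 of these below 0.

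At the entry of glucose, Slc2a3, the high-affinity transporter GLUT3, was nearly absent, at 0.109 to 0.203 FPKM over all libraries. Slc2a1, which encodes GLUT1, the main glucose transporter of brain endothelium and no member here, was at 23.2, 24.6 and 30.9 FPKM in Mito_T libraries, against 28.505, 24.99 and 36.6 FPKM in Ctrl libraries. The groups overlapped (limma adjusted p = 0.669).

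Hexokinase traps glucose as glucose 6-phosphate, and Hk1 and Hk2 bind the outer membrane of mitochondria. Hk1 was at 24.9, 25.7 and 23.01 FPKM in Mito_T libraries, against 16.1, 16.5 and 19.8 FPKM in Ctrl libraries. All Mito_T values lay above all Ctrl values, and the log2 change of 0.47 (SE 0.09) was the largest of any tested member, with a limma adjusted p of 0.0671. Without Ctrl replicate 3, the highest control, Hk1 passed with a log2 change of 0.56 (limma adjusted p = 0.0334). Without Ctrl replicates 1 and 2 or any Mito_T replicate, left out in turn, it did not pass. Hk2, the insulin- and hypoxia-responsive form, was at 16.2, 16.5 and 12.1 FPKM in Mito_T libraries, against 17.5, 16.5 and 11.9 FPKM in Ctrl libraries. Its groups overlapped fully (limma adjusted p = 0.969), and replicate 3 was the lowest library in both. Hk3, a form known from leukocytes, was listed at 0 in every library. Hk1 thus made up 62.3% ± 2.72 of the hexokinase FPKM in Mito_T libraries and 53.5% ± 7.86 in Ctrl libraries (SD, n = 3 each). Ctrl replicate 3, at 62.5%, lay inside the Mito_T range of 60.6% to 65.5%.

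Gpi1, which converts glucose 6-phosphate to fructose 6-phosphate, was at 33.96 ± 2.14 FPKM in Mito_T libraries and 33.8 ± 3.42 FPKM in Ctrl libraries (SD, n = 3 each; limma adjusted p = 0.975).

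Phosphofructokinase, which commits sugar to glycolysis, held the only called member. Pfkl (ENSMUSG00000020277, chr10:77986947-78010083, minus strand) was at 37.7, 37.5 and 34.98 FPKM in Mito_T libraries, against 29.7, 28.2 and 28.6 FPKM in Ctrl libraries. Every Mito_T library exceeded every Ctrl library, and the log2 change was 0.34 (SE 0.05, limma adjusted p = 0.0420). The call was lost whichever of the 6 libraries was left out, with limma adjusted p-values of 0.0659 to 0.197, while the log2 change stayed between 0.32 and 0.37. Pfkm, the muscle type and the most abundant, was at 81.5, 83.1 and 86.2 FPKM in Mito_T libraries, against 78.8, 77.1 and 83.01 FPKM in Ctrl libraries. Its groups overlapped, with a log2 difference of 0.07 (SE 0.05, limma adjusted p = 0.618). Pfkp, the platelet type, was low, at 2.49, 2.64 and 2.79 FPKM in Mito_T libraries against 1.55, 1.98 and 2.09 FPKM in Ctrl libraries. Its groups did not overlap, and its log2 change of 0.34 (SE 0.09) had a limma adjusted p of 0.164. The summed FPKM of the 3 genes was 122.96 ± 1.15 in Mito_T libraries and 110.3 ± 3.21 in Ctrl libraries (SD, n = 3 each), without overlap. Sums were also higher in Mito_T without overlap at hexokinase (39.5 ± 3.79 against 32.75 ± 1.00 FPKM in Ctrl), aldolase, phosphoglycerate mutase and lactate dehydrogenase. Those of the Pfkfb genes, enolase, fructose bisphosphatase, phosphoglucomutase and glycogen phosphorylase overlapped. The sums were not tested.

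The isozyme balance at phosphofructokinase differed without overlap. Pfkm held 66.98%, 67.5% and 69.5% of phosphofructokinase FPKM in Mito_T libraries, against 71.6%, 71.9% and 73.03% in Ctrl libraries, a difference of −4.19 percentage points. Pfkl held 29.9% ± 1.45 in Mito_T libraries and 26.1% ± 0.933 in Ctrl libraries (SD, n = 3 each), and Pfkp held 2.15% ± 0.104 in Mito_T libraries and 1.70% ± 0.250 in Ctrl libraries. An exact two-sided permutation test of the Pfkm share gave p = 0.1, the smallest that 3 against 3 libraries allow. Shares of the leading isozyme were compared at 9 steps, and this p was 0.45 after Benjamini-Hochberg adjustment over them. This smallest p was reached at 2 of the 9 steps, here and at lactate dehydrogenase. Among all genes tested, 9.62% lay higher and 11.4% lower in Mito_T without overlap.

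**Figure D2:**
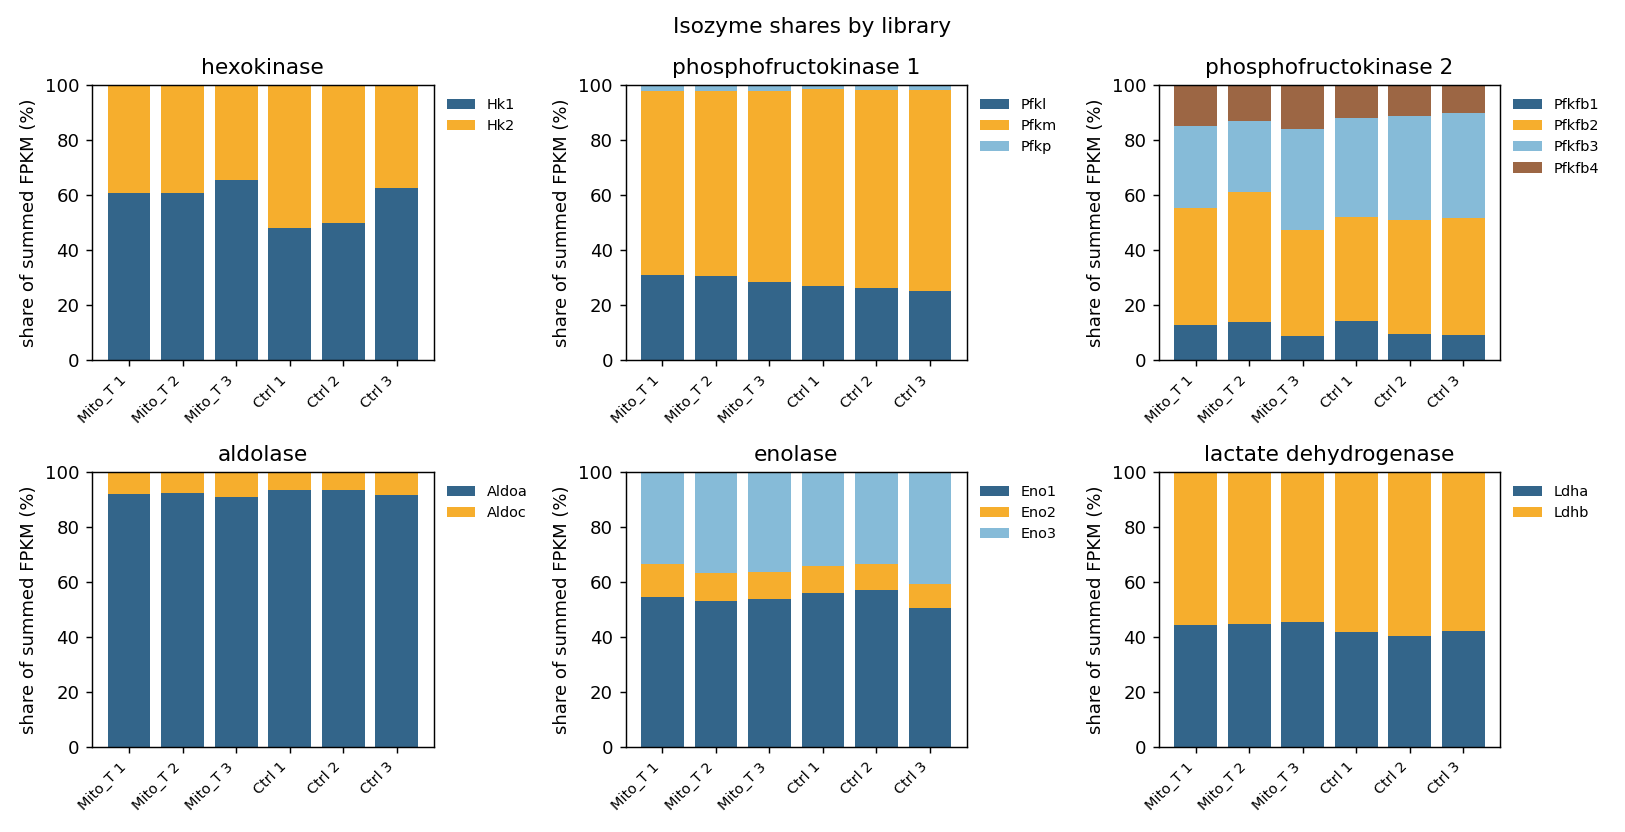
Share of each isozyme in the summed FPKM of its step, in percent, stacked for the 3 Mito_T and then the 3 Ctrl libraries at 6 steps. The Pfkm share is lower in every Mito_T library than in every Ctrl library, and so is the Ldhb share, while Hk1 in Ctrl 3, at 62.5%, lies among the Mito_T libraries.

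The Pfkfb genes encode enzymes that make and remove the allosteric activator of phosphofructokinase, and Pfkfb3 is the form known for driving glycolysis in sprouting endothelium. All were low. Pfkfb2, the most abundant on average, was at 3.903, 4.60 and 5.18 FPKM in Mito_T libraries, against 3.23, 4.78 and 5.03 FPKM in Ctrl libraries. Pfkfb3 was at 2.72, 2.485 and 4.95 FPKM in Mito_T libraries against 3.07, 4.38 and 4.49 FPKM in Ctrl libraries. The groups overlapped for both genes, with limma adjusted p-values of 0.892 for Pfkfb2 and 0.726 for Pfkfb3, and the spread within a group exceeded the difference. Pfkfb1 and Pfkfb4 lay between 1.01 and 2.18 FPKM in all libraries, with overlap between the groups (limma adjusted p = 0.792 for Pfkfb1 and 0.491 for Pfkfb4). The share of Pfkfb4 in the 4 genes was 14.8% ± 1.49 in Mito_T libraries and 11.1% ± 0.778 in Ctrl libraries (SD, n = 3 each). This share did not overlap and was not tested. The share of Pfkfb2 did overlap, at 42.8% ± 4.52 in Mito_T libraries and 40.6% ± 2.47 in Ctrl libraries.

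Tigar, a phosphatase that removes the same activator and so slows glycolysis, was the only tested member that lay lower without overlap. It was at 13.6, 13.4 and 12.8 FPKM in Mito_T libraries, against 16.1, 14.9 and 14.8 FPKM in Ctrl libraries. Its log2 change was −0.19 (SE 0.06) with an unadjusted p of 0.0137 and an adjusted p of 0.213 in limma, so it did not pass. Of the fructose bisphosphatases, which run the step in reverse, the muscle form Fbp2 was at 3.83, 3.96 and 5.22 FPKM in Mito_T libraries, against 3.67, 3.899 and 4.01 FPKM in Ctrl libraries. The Fbp2 groups overlapped (limma adjusted p = 0.662), and the liver form Fbp1 was at 0.0638 FPKM or less.

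From aldolase to lactate export all 14 members were tested and all 14 log2 changes were positive, from 0.00 to 0.32, although Eno1 and Eno3 lay just below 0 with TPM and these and Pgam2 did so without single libraries. Of the 14, 7 were higher at an unadjusted p under 0.05 and 0 were called in limma. Among all genes tested, 6.58% were higher at that level and 48% had a positive change. The 14 were measured in the same 6 libraries, so their changes are not independent. Gapdh, Pkm, Tpi1 and Aldoa were the most abundant of all members on average, before the near-identical copies described below were added. With those copies added, the Eno1 and Pgam1 means exceeded those of Tpi1 and Aldoa in both groups. Aldoa was at 191.7, 192.6 and 203 FPKM in Mito_T libraries, against 186.7, 186.8 and 169.5 FPKM in Ctrl libraries. The groups did not overlap, yet the log2 change was 0.11 (SE 0.06, limma adjusted p = 0.459). The other identifier of Aldoa (ENSMUSG00000114515, chr7:126800790-126809108) stayed under 1 FPKM and was not tested. It lay lower without overlap, with 0.282 to 0.312 FPKM in Mito_T libraries against 0.343 to 0.432 FPKM in Ctrl libraries.

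Aldoc, the brain form of aldolase, was at 17.2, 16.02 and 20.4 FPKM in Mito_T libraries, against 13.2, 13.3 and 16.002 FPKM in Ctrl libraries. The lowest Mito_T library lay just above the highest Ctrl library, and the log2 change of 0.32 (SE 0.11) had a limma adjusted p of 0.268. Aldoc is also a marker of astrocytes, from which the mitochondria came. Of 12 other astrocyte markers 8 stayed under 1 FPKM in every library, and 4 of these, Sox9, Ntsr2, Aqp4 and Gjb6, were at 0 throughout. Aldh1l1, a folate enzyme of astrocytes that was too low to be tested, was at 0.972, 1.15 and 1.06 FPKM in Mito_T libraries, against 0.416, 0.455 and 0.302 FPKM in Ctrl libraries. Slc1a2, a glutamate transporter, was at 0.169, 0.122 and 0.074 FPKM in Mito_T libraries, against 0.013, 0.062 and 0.068 FPKM in Ctrl libraries. Both of these lay higher in every Mito_T library, and were singled out after their values were seen. The other markers above 0 overlapped between the groups, and 4 of them had lower means in Mito_T: Slc1a3 (0.0522 FPKM in Mito_T libraries, 0.105 FPKM in Ctrl libraries), Fgfr3 (0.301 FPKM in Mito_T libraries, 0.427 FPKM in Ctrl libraries), S100b (0.944 FPKM in Mito_T libraries, 1.001 FPKM in Ctrl libraries) and Gja1 (24.4 FPKM in Mito_T libraries, 34.5 FPKM in Ctrl libraries). The rest had higher means in Mito_T: Gfap (0.128 FPKM in Mito_T libraries, 0.0771 FPKM in Ctrl libraries) and Slc4a4 (4.76 FPKM in Mito_T libraries, 4.27 FPKM in Ctrl libraries). The 12 summed to 31.6 to 32.03 FPKM in Mito_T libraries and 18.6 to 52.6 FPKM in Ctrl libraries. Most of that sum was Gja1, a gap junction gene that many cell types express. The part of astrocyte RNA in the Aldoc values was not tested.

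Tpi1, Eno2 and Gapdh lie within chr6:124760053-125166467. Tpi1, triose phosphate isomerase, was at 228, 229.7 and 210.1 FPKM in Mito_T libraries, against 208, 176 and 159 FPKM in Ctrl libraries. Its groups stood apart by a narrow margin (log2 change 0.30, SE 0.10, limma adjusted p = 0.252). Gapdh, often used as a constant gene in expression assays, was at 537, 558 and 552 FPKM in Mito_T libraries, against 544, 502 and 373 FPKM in Ctrl libraries. Ctrl replicate 3 was far below the other 5 libraries, and the groups overlapped (log2 change 0.23, SE 0.14, limma adjusted p = 0.509). Pgk1, which makes ATP at the next step, was at 113, 114 and 99.8 FPKM in Mito_T libraries, against 104.5, 90.4 and 85.6 FPKM in Ctrl libraries, with overlap (unadjusted p = 0.0461 and adjusted p = 0.347 in limma).

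Pgam1, the main phosphoglycerate mutase, was at 126.8, 129.97 and 135 FPKM in Mito_T libraries, against 120.1, 116 and 117.9 FPKM in Ctrl libraries. The groups did not overlap, and the log2 change was 0.14 (SE 0.05, limma adjusted p = 0.261). The muscle form Pgam2 lay at 3.04 to 4.10 FPKM in all libraries and made up 2.78% ± 0.247 of the step in Mito_T libraries and 2.93% ± 0.386 in Ctrl libraries (SD, n = 3 each).

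The enolases were all expressed, although Eno2 is known as the neuronal form and Eno3 as the muscle form. Eno1 was at 88.8, 92.9 and 93.2 FPKM in Mito_T libraries, against 92.3, 92.1 and 89.8 FPKM in Ctrl libraries. Its log2 change of 0.00 (SE 0.05, limma adjusted p = 0.985) was among the smallest of the members. Eno3 was at 54.9, 64.7 and 62.9 FPKM in Mito_T libraries, against 56.4, 54.1 and 72.8 FPKM in Ctrl libraries, with full overlap (limma adjusted p = 0.996). Eno2 was at 19.5, 18.2 and 17.2 FPKM in Mito_T libraries, against 16.5, 15.7 and 15.4 FPKM in Ctrl libraries. Eno2 did not overlap between the groups (log2 change 0.19, SE 0.06, limma adjusted p = 0.239), while the shares of all 3 enolases, taken without near-identical copies, did.

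Pkm, pyruvate kinase, makes pyruvate and ATP, and its M1 and M2 splice forms cannot be separated in gene-level values. It was at 348, 321 and 357 FPKM in Mito_T libraries, against 316, 299 and 305 FPKM in Ctrl libraries. The groups did not overlap, with a log2 difference of 0.16 (SE 0.06, limma adjusted p = 0.316).

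Lactate dehydrogenase is a tetramer of A and B chains, of which A favours lactate formation and B the reverse. Ldha was at 116, 125 and 118.5 FPKM in Mito_T libraries, against 107, 94.7 and 92.4 FPKM in Ctrl libraries. All Mito_T values were above all Ctrl values, with a log2 difference of 0.29 (SE 0.07, limma adjusted p = 0.136). Ldhb, the more abundant in every library, was at 145.5, 154 and 142 FPKM in Mito_T libraries, against 150.3, 139.6 and 127 FPKM in Ctrl libraries, with overlap (log2 change 0.09, SE 0.07, limma adjusted p = 0.672). The Ldhb share of the pair was 55.7%, 55.2% and 54.5% in Mito_T libraries, against 58.4%, 59.6% and 57.9% in Ctrl libraries. This difference of −3.48 percentage points separated the groups fully, with an exact permutation p of 0.1 and an adjusted p of 0.45 over the 9 steps. Slc16a3, the lactate exporter MCT4, was at 16.7, 19.3 and 14.7 FPKM in Mito_T libraries, against 13.8, 15.4 and 13.6 FPKM in Ctrl libraries, with overlap (limma adjusted p = 0.400).

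**Figure D3:**
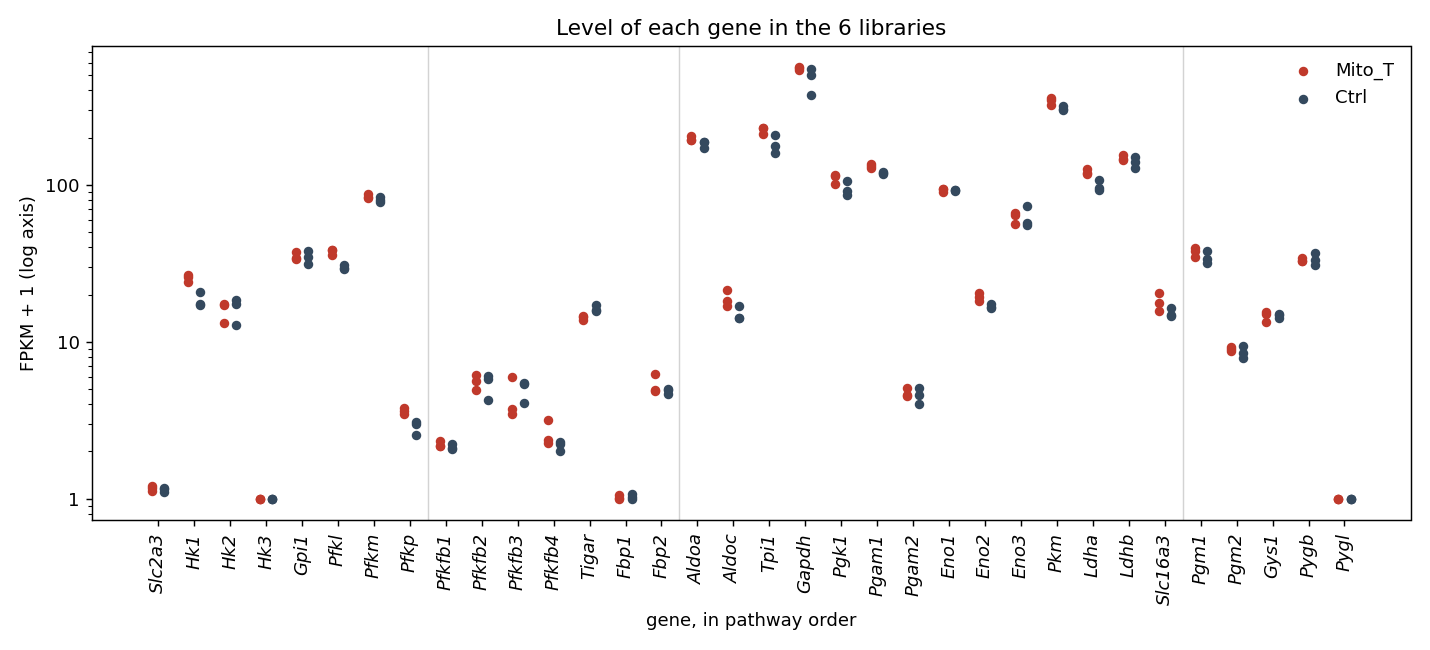
FPKM + 1 of the 34 genes on a log axis, in pathway order, with 1 point per library, Mito_T in red left of Ctrl in dark blue. Gapdh, Pkm, Tpi1 and Aldoa are the highest, Slc2a3, Hk3, Fbp1 and Pygl lie at or near 0 FPKM, and the Pfkl, Hk1 and Ldha points of the groups stand apart.

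Several of these genes have near-identical copies elsewhere in the genome, mostly processed pseudogenes, and reads can be assigned to either. Copies were defined as annotated genes with at least 50% of their 31-base words in the member. Gapdh had 43 of them, which together held 594.5 to 616 FPKM in Mito_T libraries and 536 to 578 FPKM in Ctrl libraries, more than Gapdh itself. Eno1 had 2, Eno1b and Gm4735, which held 241.5 to 244 FPKM in Mito_T libraries and 228 to 239 FPKM in Ctrl libraries. Pgam1 had 1, Pgam1-ps2, at 101.2 to 110.9 FPKM in Mito_T libraries and 90.9 to 96.2 FPKM in Ctrl libraries. Whether the reads given to the copies came from these 3 genes was not tested, so the deposited level of each may be a partial one. With the copies added, Gapdh was at 1132, 1175 and 1150.5 FPKM in Mito_T libraries, against 1122, 1058 and 909.7 FPKM in Ctrl libraries, and the groups no longer overlapped (log2 change 0.17, SE 0.08, limma adjusted p = 0.442). Eno1 then made up 80.9% ± 0.69 of the enolase FPKM in Mito_T libraries and 80.8% ± 2.20 in Ctrl libraries, in place of 53.7% ± 0.80 in Mito_T libraries and 54.4% ± 3.46 in Ctrl libraries without them (SD, n = 3 each). The Eno2 share, which overlapped without the copies, then did not, at 4.81%, 4.33% and 4.11% in Mito_T libraries against 4.08%, 4.01% and 3.79% in Ctrl libraries. Pfkl, Hk1, Pfkp and Tigar had no such copy, and 0.0% to 0.9% of their words occurred in any other gene. For Ldha, 19.6% of words occurred in other genes, but no gene met the definition of a copy. Pgk1, Pkm and Ldhb shared 54.7%, 34.7% and 33% of their words with other genes, but their copies held less. The 3 copies of Pgk1 together held 28.1 to 33.003 FPKM in Mito_T libraries and 23.9 to 28.96 FPKM in Ctrl libraries. The copy of Pkm held 14.2 to 15.02 FPKM in Mito_T libraries and 13.3 to 15.2 FPKM in Ctrl libraries, and that of Ldhb 3.26 to 4.12 FPKM in Mito_T libraries and 3.34 to 4.13 FPKM in Ctrl libraries. With its copy added, the Ldhb share still differed without overlap, by −3.51 percentage points.

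**Figure D4:**
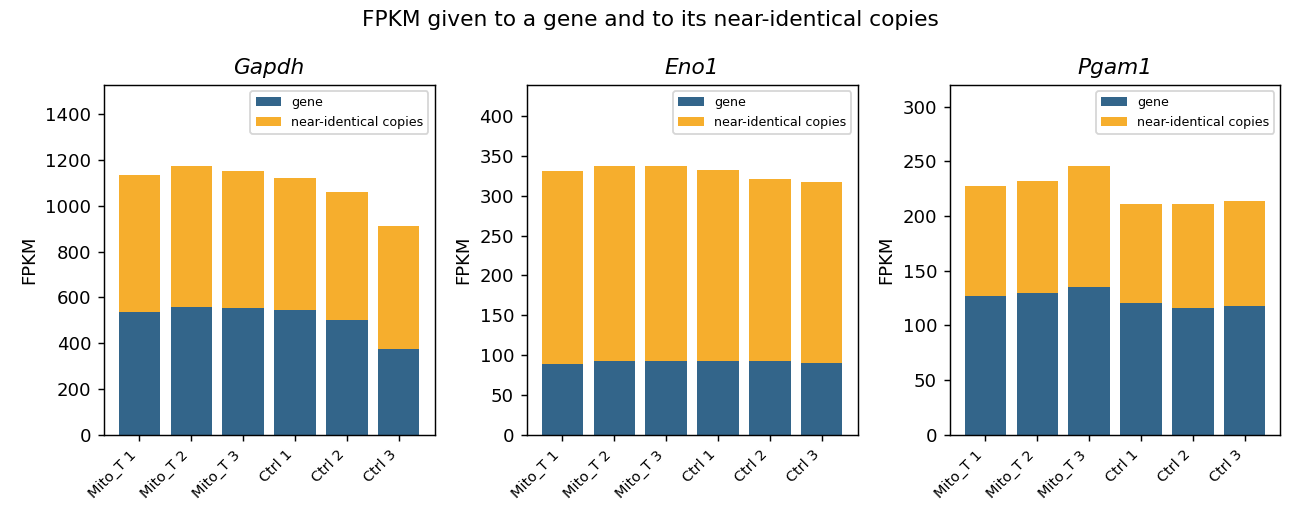
FPKM of Gapdh, Eno1 and Pgam1 (blue) with the summed FPKM of their near-identical copies (yellow) stacked on top, for the 3 Mito_T and then the 3 Ctrl libraries. The copies hold more than the gene for Gapdh and Eno1, and Gapdh in Ctrl 3, at 373 FPKM, is the lowest of its panel.

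For glycogen, Pgm1, which links glucose 6-phosphate to glucose 1-phosphate, was at 37.02, 38.9 and 33.8 FPKM in Mito_T libraries, against 37.1, 32.6 and 30.95 FPKM in Ctrl libraries. Pgm2 was lower, at 6.84 to 8.34 FPKM over all libraries, and both genes overlapped between the groups (limma adjusted p = 0.581 for Pgm1 and 0.717 for Pgm2). Gys1, the muscle-type glycogen synthase, was at 12.3, 14.6 and 13.95 FPKM in Mito_T libraries, against 14.1, 13.9 and 13.2 FPKM in Ctrl libraries, a log2 difference of −0.02 (SE 0.07, limma adjusted p = 0.952). Pygb, the brain form of glycogen phosphorylase, was at 31.6, 31.5 and 33.3 FPKM in Mito_T libraries, against 29.8, 32.4 and 36.03 FPKM in Ctrl libraries, a log2 difference of −0.02 (SE 0.08, limma adjusted p = 0.931). The liver form Pygl was listed at 0 in every library. The 4 tested glycogen genes had a median log2 change of 0.03, and 0 had an unadjusted p under 0.05 in limma.

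Other genes of glucose metabolism were read from gene lists, and 0 of them were called in limma. Of 6 tested hexose transporters 1 was higher and 1 lower at an unadjusted p under 0.05. The smallest p there was that of Slc2a4, the insulin-responsive GLUT4, at 1.48 ± 0.149 FPKM in Mito_T libraries and 2.45 ± 0.190 FPKM in Ctrl libraries (SD, n = 3 each; limma adjusted p = 0.0559). Of 11 further enzymes of glycolysis and gluconeogenesis 1 was higher and 4 lower at that level, with Gpd1, the glycerol 3-phosphate dehydrogenase, at 1.55 ± 0.150 FPKM in Mito_T libraries and 2.41 ± 0.345 FPKM in Ctrl libraries (limma adjusted p = 0.132). Of 2 further lactate transport genes 0 were higher and 1 was lower at that level. That was basigin (Bsg), the chaperone of lactate transporters, at 193.9 ± 9.95 FPKM in Mito_T libraries and 237 ± 20.2 FPKM in Ctrl libraries (limma adjusted p = 0.164). The importer and exporter Slc16a1, MCT1, was at 15.7 ± 2.25 FPKM in Mito_T libraries and 16.4 ± 2.94 FPKM in Ctrl libraries (limma adjusted p = 0.914).

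Of 14 further glycogen genes 1 was higher and 1 lower at an unadjusted p under 0.05, with Gaa, the lysosomal glucosidase, at 95.1 ± 3.83 FPKM in Mito_T libraries and 107.2 ± 4.15 FPKM in Ctrl libraries (limma adjusted p = 0.239). Of 8 pentose phosphate genes 2 were higher and 1 lower, with transketolase, Tkt, at 34.8 ± 0.561 FPKM in Mito_T libraries and 28.54 ± 1.29 FPKM in Ctrl libraries (limma adjusted p = 0.0671). Of 14 genes of pyruvate entry into mitochondria 2 were higher and 1 lower. The smallest p was that of Pdk1, a kinase that shuts pyruvate dehydrogenase, at 7.39 ± 0.895 FPKM in Mito_T libraries and 5.33 ± 0.891 FPKM in Ctrl libraries (limma adjusted p = 0.215).

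Of 12 transcriptional regulators 1 was higher and 1 lower at that level. Hif1a, a hypoxia-inducible factor known to drive glycolytic genes, was at 54.5, 55.2 and 59.8 FPKM in Mito_T libraries, against 64.4, 63.3 and 70.3 FPKM in Ctrl libraries, lower without overlap (limma adjusted p = 0.190). The higher gene was Epas1, which encodes another hypoxia-inducible factor. It was at 13.2 ± 0.650 FPKM in Mito_T libraries and 11.2 ± 1.22 FPKM in Ctrl libraries, without overlap (SD, n = 3 each; limma adjusted p = 0.317). Of 13 HIF targets outside glycolysis 0 were higher and 2 lower. Their median log2 change was 0.02, beside 0.12 for the 30 members. The smallest p was that of Egln3, an oxygen-sensing hydroxylase, at 28.7 ± 1.77 FPKM in Mito_T libraries and 34.8 ± 2.01 FPKM in Ctrl libraries (limma adjusted p = 0.139). The part of hypoxia-inducible factors in the results was not tested.

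Markers of other cell types were read in the same libraries. The 11 fibroblast and mural markers summed to 375 to 414 FPKM in Mito_T libraries and 426 to 461 FPKM in Ctrl libraries, and 5 of the 11 were tested. Most of that sum was Col3a1 and Col1a1. Col3a1 overlapped between the groups, at 230.9 ± 15.6 FPKM in Mito_T libraries and 219.8 ± 7.34 FPKM in Ctrl libraries (limma adjusted p = 0.702). Col1a1 was the 1 called, lower at 83.9 ± 3.19 FPKM in Mito_T libraries against 137.9 ± 2.45 FPKM in Ctrl libraries (limma adjusted p = 0.00547). At an unadjusted p under 0.05 in limma it was the 1 lower, and 2 were higher: Pdgfra, at 22.6 ± 0.587 FPKM in Mito_T libraries and 18.4 ± 0.756 FPKM in Ctrl libraries, and Acta2, at 2.18 ± 0.215 FPKM in Mito_T libraries and 1.64 ± 0.107 FPKM in Ctrl libraries. The median log2 change of the 5 was 0.07. The 6 microglia markers summed to 182 to 208 FPKM in Mito_T libraries and 224 to 272 FPKM in Ctrl libraries, nearly all of it Tmem119, and 5 stayed under 1 FPKM. The part of these differences in the values above was not tested.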

How the data were processed

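RNA was sequenced in 6 libraries, 3 Mito_T and 3 Ctrl. The authors deposited 1 value per gene identifier and library, read here as FPKM from the values, since the headers name no unit and libraries sum to 281433 to 297838. FastQC 0.11.5, STAR 2.5.3a and StringTie 1.3.1c with GRCm38 (mm10) were used, per the submitters' processing notes, and their settings and strand use are not given in the sources used here. Of 55335 identifiers 55154 matched GENCODE M21. Depth was estimated from the value worth 1 fragment in genes with 1 transcript. Only 21.4% to 33.3% of low values were within 0.02 of a whole multiple, so no count model was used. No 2 libraries held the same values.

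Log2(FPKM + 1) values were compared with limma 3.58.1 (R 4.3.3), with trended, robust moderation of the variance. A gene entered if 3 or more libraries had at least 1 FPKM, with two-sided p-values adjusted by Benjamini-Hochberg over all of them. The log scale with a pseudocount of 1 understates changes of low genes. TMM factors were computed from the FPKM. The code was tested on simulated data. Isozyme shares were compared with exact permutation tests in scipy 1.17.1. Alternatives were each library left out, copies added, the replicate block, plain empirical Bayes, no mitochondrial DNA genes, TPM, TMM scaling, quantile normalization, a filter at a mean of 5 FPKM, no filter, and pseudocounts of 0.01 and 0.1. The members and lists were chosen with earlier results of these data known. Values in every library are given for members that were called, had an unadjusted p under 0.05 or led their step, and each list is named by its smallest p. Further markers were named after their values were seen.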

Additional observations from a re-analysis of the deposited data

How the results depend on the processing

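Over all genes, 141 were called, against 13 with no filter, 56 with the replicate block and 15 to 84 with each library left out in turn. Among members 1 was called, against 0 with no filter, TMM scaling, plain empirical Bayes or the replicate block, 2 with quantile normalization (Pfkl and Ldha), and 0 to 1 with each library left out. The call of Pfkl was kept in 7 of 17 alternatives, with limma adjusted p-values of 0.0331 to 0.197 over all 17 and a log2 change of 0.32 to 0.37. The 7 include the setting with copies added, which left the Pfkl values unchanged. The median log2 change of the members was 0.09 to 0.14 over all settings. Of the 30 tested members, 22 kept the sign of their log2 change in every setting that could be run for them, and 8, none of them called, did not. Without a library in turn these lay at −0.187 to 0.108 (Hk2), −0.063 to 0.079 (Gpi1), −0.094 to 0.163 (Pfkfb2), −0.028 to 0.132 (Pgam2), −0.009 to 0.026 (Eno1), −0.077 to 0.134 (Eno3), −0.063 to 0.050 (Gys1) and −0.088 to 0.046 (Pygb). Eno1 and Eno3 were also each at −0.001 with TPM, and Gys1 was at 0.007 with quantile normalization. Leading isozyme shares of Pfkm, Ldhb, Hk1 and Aldoa kept their direction in every alternative run. The others changed sign without a library, with differences in percentage points of −0.077 to 4.438 (Pfkfb2), −0.05 to 0.335 (Pgam1), −2.703 to 0.517 (Eno1), −0.23 to 0.657 (Fbp2) and −0.059 to 1.168 (Pgm1), and that of Eno1 was 0.093 with copies added. The cause was not tested. The labels do not state whether same-numbered libraries were paired, and the values could not decide it. Deviations from the group means of same-numbered libraries correlated at 0.102, 0.046 and 0.300 across genes. A library correlated best with its own number 3 of 6 times. With the replicate block the Pfkl log2 change was 0.34 and its limma adjusted p 0.0655. Genes near 1 FPKM, such as Pfkfb1 and Pfkfb4, lie close to the filter, and their fragment numbers are not known.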
